A study of Mus musculus with 12 samples.

Results

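The circadian clock genes described here are 10 genes of the molecular clock of mouse cells, Per1, Per2, Cry1, Cry2, Bhlhe40, Arntl (also written Bmal1), Clock, Nr1d1, Nr1d2 and Dbp. They were read at all probe sets of the Affymetrix Mouse 430A array that the platform annotation assigns to exactly 1 of them, which gave 14 of the 20380 probe sets with 1 gene. Cells were sorted from hind limb muscle of mice of strain C57BL/6J, 8 to 12 weeks old, and measured on 4 arrays for each of 3 groups. Activated satellite cells (ASC) bound the monoclonal antibody SM/C-2.6, which recognises mouse satellite cells, and were then cultured for 4 days in DMEM with 20% fetal calf serum and 2.5 ng/ml basic fibroblast growth factor, after which over 99% were MyoD-positive. Quiescent satellite cells (QSC) were antibody-positive cells taken directly after sorting, over 97% of them Pax7-positive. Non-myogenic cells (NMC) lacked both the SM/C-2.6 antigen and the leukocyte antigen CD45, with under 1% myogenic cells among them, and were likewise taken without culture. The design sets satellite cells, the stem cells of muscle, in both states beside the other cells of the tissue. No genotype differed between the groups, and the labels give neither the hour at which mice were taken nor whether arrays of 1 group came from separate animals or cultures. P-values therefore measure only the spread between these arrays, which may be technical.

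The clock runs as a loop of transcription. The proteins of Clock and Arntl pair on E-box sequences and switch on the Per and Cry genes, whose proteins return to the nucleus and repress that pair. They also drive Nr1d1 and Nr1d2, nuclear receptors that repress Arntl, and Dbp, a transcription factor that carries the rhythm to output genes, while the protein of Bhlhe40 competes for the same E-boxes. In muscle the loop is known to run both in fibres and in satellite cells. Serum, glucocorticoids and cyclic AMP can induce Per1 rapidly, as they do immediate early genes, and thereby set the phase of the clock. A population of cells measured at 1 moment gives a level, which joins the mean level of the rhythm and its phase.

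RefSeq promoter windows (build GRCm38.p6, 250 bases before to 50 after a start) were at hand for 8 of the 10 genes, in 12 windows. The stretches below are shown as examples of clock or cyclic AMP motifs in member windows, and were not chosen by expression. Cry2, which holds a variant E-box, is not printed. Capitals mark the E-box CACGTG, its variant CACGTT (printed here in its complementary reading) or TGACGT, the core of the cyclic AMP response element. The first Per1 stretch lies at chr11:69098749-69098848 on the plus strand, 200 to 101 bases before the first start, and the second at chr11:69099972-69100071 on the plus strand, 180 to 81 bases before the second start. The Cry1 stretch lies at chr10:85185085-85185184 on the minus strand, 130 to 31 bases before its start, and the Nr1d1 stretch at chr11:98775378-98775477 on the minus strand, in the last 100 bases before its start.
Per1 first start: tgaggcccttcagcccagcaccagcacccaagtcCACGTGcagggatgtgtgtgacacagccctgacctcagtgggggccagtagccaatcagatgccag
Per1 second start: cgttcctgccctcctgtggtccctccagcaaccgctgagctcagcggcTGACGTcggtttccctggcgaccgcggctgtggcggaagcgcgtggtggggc
Cry1: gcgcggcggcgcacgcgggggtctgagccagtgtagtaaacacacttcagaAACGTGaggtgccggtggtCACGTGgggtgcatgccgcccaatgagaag
Nr1d1: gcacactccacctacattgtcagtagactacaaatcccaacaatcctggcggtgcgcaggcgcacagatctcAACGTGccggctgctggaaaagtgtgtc

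Both strands of every window were searched. The E-box was in 2 of the 12 member windows (Per1 and Cry1) and in 7.15% of all 32851 promoter windows, and the variant in 3 of the 12 (Cry1, Cry2 and Nr1d1) and in 4.68% of all. TGACGT was in 1 of the 12 (Per1, second start) and in 7.51% of all. The sequence AGGTCA, the core that REV-ERB and ROR receptors read, was in 4 of the 12 (Per1, Nr1d2, Clock and Arntl) and in 16.3% of all, and a D-box (TTATGTAA or TTACGTAA), the site that Dbp's protein reads, was in 0 of the 12 and 1.06% of all. No motif overlapped another in these windows. The windows of Dbp, Arntl, Nr1d2 and Clock held no E-box, variant or TGACGT. A match describes letters only, and a part of any motif in the expression differences was not tested.

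Signals are MAS5 intensities that were scaled here to a common 2% trimmed mean of 235.14 on every array. Probe sets with a mean scaled signal of at least 47.03 over the 12 arrays were tested, and 11 of the 14 member probe sets passed, for 9 of the 10 genes. Both probe sets of Per2 and the second of Nr1d2 (1416959_at) did not. Of the 11 that passed, 7 reached that signal in all 3 groups and 4 (Per1, Cry1, Cry2 and Dbp 1418174_at) in the QSC and NMC groups but not in ASC. A small-sample labelling kit was used for 5 of the 12 arrays (2 ASC, 2 QSC, 1 NMC) and a two-cycle kit for the other 7, and the fit has a term for the kit. Pax7 and Myod1 followed the labels, while other markers were mixed. Of 8 satellite cell markers 4 were higher and 2 lower in ASC than in NMC, where 33.8% of all genes were higher and 38.1% lower. QSC also had signal for fibroblast and endothelial markers, with sums given below. Pax7 stood at 90.2 ± 31.7 in ASC, 1071 ± 572 in QSC and 4.07 ± 2.42 in NMC, and Myod1 at 4629 ± 1244, 1277 ± 328 and 36.2 ± 3.96 (SD, n = 4 each). Ptprc, which encodes CD45, was at most 8.86 in ASC, 45.7 in QSC and 43.8 in NMC.

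At a common trimmed mean, most clock genes had a lower signal in cultured satellite cells than in freshly sorted ones, by unlike amounts. The amount of transcript per cell was not measured. Against QSC, 10 of the 11 member probe sets were lower in ASC and 0 higher, for 8 of the 9 tested genes at their brightest probe set (37.9% of all genes were lower). They were every tested probe set of Per1, Cry1, Cry2, Bhlhe40, Arntl, Nr1d1, Nr1d2 and Dbp and 1 of the 2 of Clock (limma, Benjamini-Hochberg adjusted p under 0.05 over 12072 probe sets). Of these, Per1, Cry1, Cry2 and the dimmer Dbp probe set reached the filter signal in QSC and NMC but not in ASC. They entered the test through the groups where they were brighter, and could hardly be called higher in ASC. The other called probe sets reached it in all 3 groups. In the same comparison 68.3% of all probe sets were called, 37.6% lower and 30.7% higher. Arrays did not overlap for the same 10 member probe sets, and for 27.6% of all probe sets in that direction. The median log2 difference was -1.98 over the 11 member probe sets and -0.12 over all. Which calls fell on the lower side depends on the scaling for the whole array, with 3708 higher and 4540 lower as fitted, 5571 and 2852 after median centring and 4553 and 3158 unscaled. The 10 member calls kept their direction under both.

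**Figure D1:**
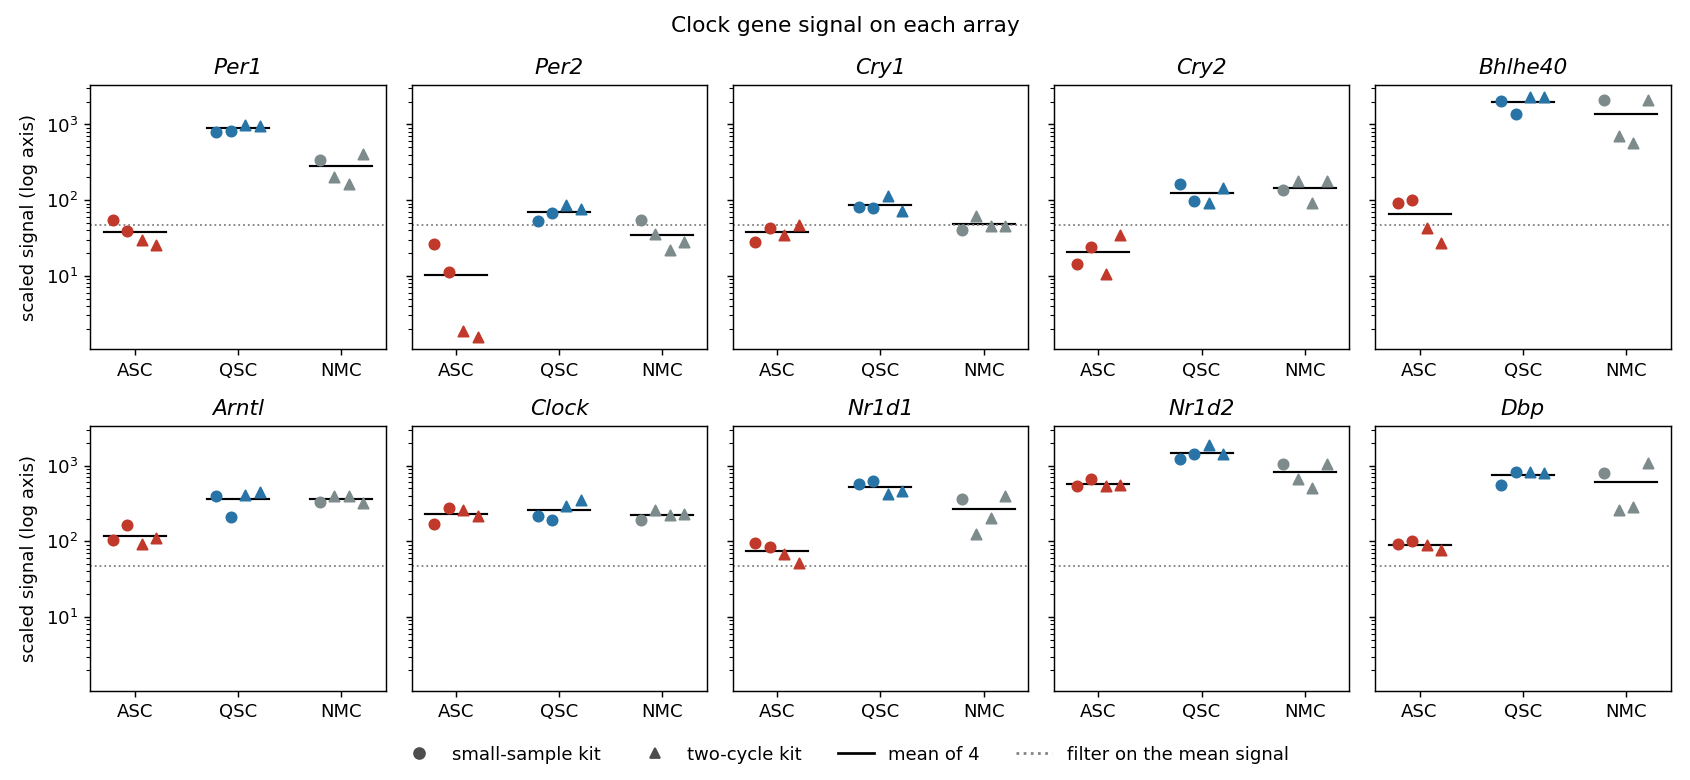
Scaled signal (log axis) at the brightest probe set of each of the 10 clock genes, for the 4 ASC, 4 QSC and 4 NMC arrays, with circles for the small-sample and triangles for the two-cycle labelling kit, a bar at the group mean and a dotted line at the filter of 47.03. For Per1, Bhlhe40, Nr1d1 and Dbp the ASC arrays all lie at or below 100.4, under every QSC and NMC array, while the Clock arrays of the 3 groups overlap.

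Among the repressors of the loop, Per1, the rapidly inducible period gene, had 54.6, 39.6, 29.3 and 25.8 in ASC, against 789.8, 814.8, 998.6 and 946.5 in QSC (probe set 1449851_at, replicates 1 to 4). The groups lay far apart, and the log2 difference was -4.14 ± 0.25 (SE, adjusted p 1.12e-08). On 3 of the 4 ASC arrays Per1 lay under the filter, so the size depends on the pseudocount, at -4.49 with 1/64 and -3.30 with 1/4 of the trimmed mean in place of 1/16. Bhlhe40, the E-box competitor also known as Dec1, showed the largest difference of the members, with 91.6, 99.4, 43.3 and 26.9 in ASC and 2043, 1384, 2293 and 2310.5 in QSC (1418025_at). Its log2 difference was -4.75 ± 0.40 (adjusted p 2.39e-07), -3.94 on small-sample and -5.56 on two-cycle arrays. In limma's interaction test that difference between kits had an adjusted p of 0.179.

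The cryptochromes, the partners of the Per proteins, were lower by smaller amounts. Cry2 had 14.3, 24.1, 10.6 and 34.3 in ASC, against 162.8, 98.4, 90.6 and 144.1 in QSC (1426383_at), a log2 difference of -1.98 ± 0.26 (adjusted p 1.6e-05). Cry1 had 28.1, 42.6, 35.1 and 46.8 in ASC and 80.1, 78.2, 114.5 and 71.3 in QSC (1433733_a_at), a log2 difference of -0.93 ± 0.16 (adjusted p 0.000222). Neither gene's groups overlapped. All ASC values of both lie under the filter, where the added pseudocount of 14.7 holds fold changes down.

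Per2, the second period gene, was too dim to be tested at either probe set. Its brighter one (1417602_at) read 26.5, 11.2, 1.9 and 1.5 in ASC, 53.5, 67.3, 85.2 and 75.9 in QSC and 54.8, 35.5, 21.8 and 28.2 in NMC. Every QSC array exceeded every ASC array, and with no filter on signal its log2 difference was -1.87 (adjusted p 4.7e-05) for ASC against QSC and -1.17 (adjusted p 0.002) for ASC against NMC. The other (1417603_at) stayed between 1.7 and 25.6 on all 12 arrays, with overlapping groups.

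The activators behaved unequally. Arntl had 104.6, 166.3, 92.4 and 110.2 in ASC, against 401.2, 210.7, 407.7 and 442.6 in QSC (1425099_a_at). QSC replicate 2 lay well below the other QSC arrays but above all ASC arrays, and the log2 difference was -1.49 ± 0.23 (adjusted p 5.83e-05). Clock, its partner, differed between its probe sets. At 1418659_at it had 168.4, 278.9, 256.5 and 217.5 in ASC and 216.0, 190.0, 293.7 and 347.3 in QSC, so the groups overlapped, and the log2 difference was -0.16 with a 95% interval of -0.53 to 0.21 (adjusted p 0.423). At 1418660_at it had 99.1, 122.8, 105.8 and 102.1 in ASC and 210.2, 159.7, 346.6 and 270.9 in QSC, a log2 difference of -1.05 ± 0.18 (adjusted p 0.000199), with an adjusted p of 0.0596 on small-sample arrays. As the mean of both probe sets the Clock difference was -0.60 (adjusted p 0.00414). Which of the probe sets follows the gene was not tested.

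The REV-ERB receptors, the repressors of Arntl, and the output factor Dbp were lower as well. Nr1d1 had 95.9, 83.7, 69.0 and 52.3 in ASC, against 567.7, 622.6, 420.9 and 458.8 in QSC (1426464_at), a log2 difference of -2.57 ± 0.25 (adjusted p 9.88e-07). It was alike within both kits, at -2.55 and -2.60. Nr1d2, its paralogue, had 532.9, 667.8, 545.8 and 559.7 in ASC and 1235, 1431, 1877 and 1429.9 in QSC (1416958_at), a log2 difference of -1.34 ± 0.23 (adjusted p 0.000146). The second Nr1d2 probe set (1416959_at) read under 23.4 on every array. Dbp had 91.5, 100.4, 88.5 and 76.4 in ASC, against 550.1, 831.2, 815.7 and 795.5 in QSC (1438211_s_at), a log2 difference of -2.86 ± 0.37 (adjusted p 1.21e-05). Its dimmer probe set (1418174_at) was 4-fold lower (adjusted p 0.000121), with ASC arrays of 25.7 to 49.8 below QSC arrays of 128.5 to 277.2.

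Over the 10 called probe sets the log2 difference lay between -0.66 and -3.94 on small-sample arrays and between -0.93 and -5.56 on two-cycle arrays. No member passed the test for a difference between kits in any of the 3 comparisons, where the smallest limma adjusted p was 0.143 (Clock 1418660_at).

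**Figure D2:**
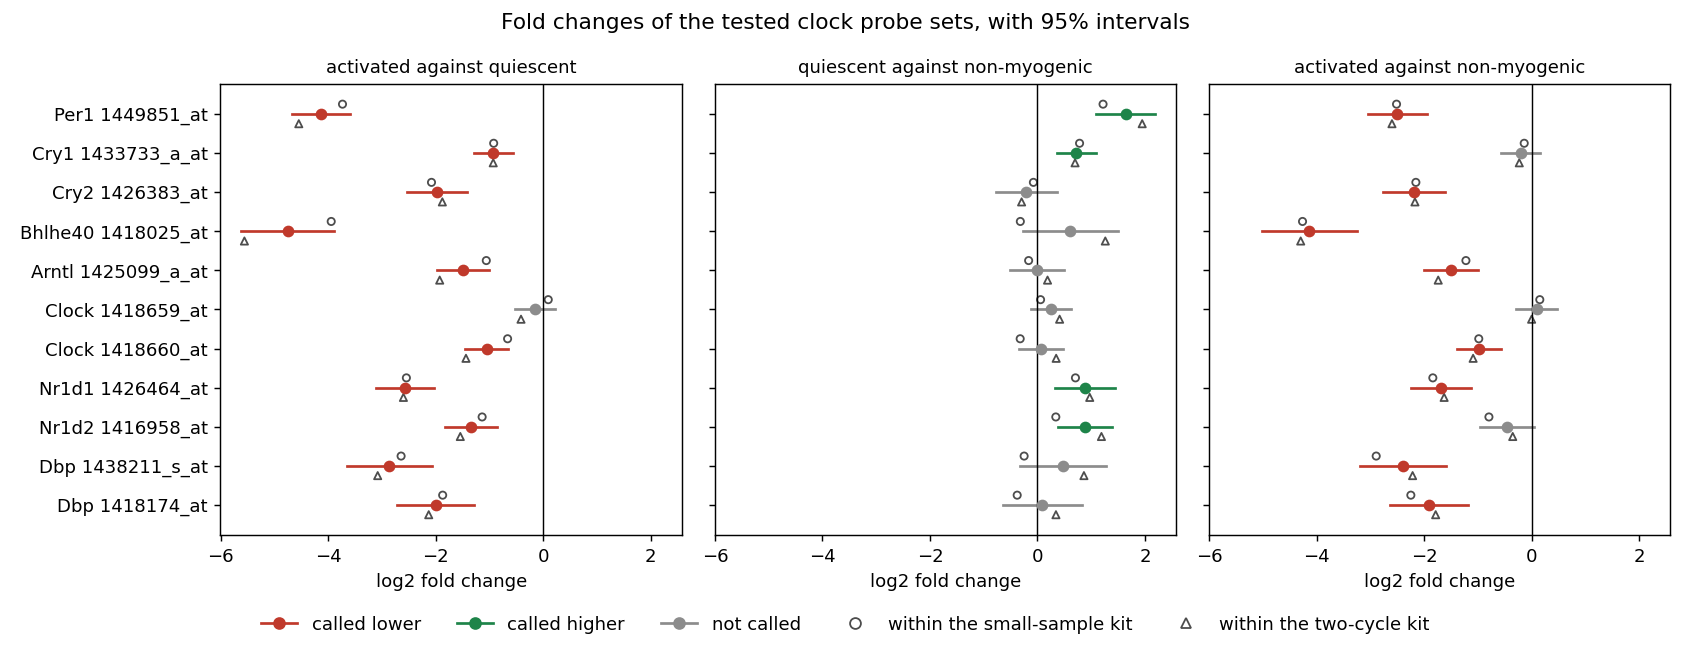
Log2 fold change (horizontal axis) of the 11 tested clock probe sets in 3 comparisons, with 95% intervals as bars, filled points coloured by call and open symbols for the value within each labelling kit. In activated against quiescent cells 10 of 11 lie left of 0 with intervals that exclude it, in quiescent against non-myogenic cells 4 lie to the right with such intervals, and in activated against non-myogenic cells 8 lie to the left with them.

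Several other measures moved with this comparison. The QSC and NMC cells were taken at once after sorting and the ASC after 4 days of culture in serum, so activation, culture, time since sorting and the phase of the clock cannot be told apart. Of 19 tested immediate early genes, which are induced by cell dissociation among other stimuli, 19 were lower in ASC, with a median log2 difference of -3.94 and a summed signal of 20 genes at 4065 to 8039 in ASC and 65074 to 121162 in QSC. Fos, for example, averaged 479 ± 629 in ASC and 11488 ± 5130 in QSC, and Egr1 1048 ± 483 and 13790.4 ± 6397 (SD, n = 4 each). All 10 endothelial markers were lower, with summed signals of 85.9 to 138.9 in ASC, 3601 to 5703 in QSC and 15106 to 17493 in NMC, and so were all 9 fibroblast markers, at 1209 to 1461, 19117 to 28214 and 43222 to 75350. Cycling and myoblast markers were higher in ASC for 8 of 8, leukocyte markers lower for 2 of 4 tested, and myofibre markers lower for 3 and higher for 1 of 10. All 10 endothelial markers averaged under the filter of 47.03 in ASC, as did the fibroblast markers other than Col3a1 and Col6a1. So did the leukocyte markers Csf1r and Lyz2 and, of the immediate early genes, Fosb, Egr2, Atf3, Nr4a1 and Socs3. These entered the test through groups where they were brighter, and could hardly be called higher in ASC. Pecam1, an endothelial adhesion molecule, averaged 4.99 in ASC, 76.6 in QSC and 221 in NMC, and Pdgfra, a fibroblast receptor, 3.69, 158 and 3023. The ratio of 3' over 5' control signal for Gapdh, which depends on RNA integrity and amplification, was 1.75 ± 0.41 in ASC, 4.02 ± 0.97 in QSC and 3.87 ± 0.92 in NMC (SD, n = 4 each). The part of these in the clock gene differences was not tested. In bulk samples fewer cells of a type and less RNA per cell cannot be told apart.

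Between the freshly sorted populations the clock genes lay closer together. Against NMC, 4 of the 11 member probe sets were higher in QSC, those of Per1, Cry1, Nr1d1 and Nr1d2, and 0 were lower. These are 4 of the 9 tested genes, where 25.9% of all genes were higher, and 51.4% of all probe sets were called, 27.4% higher and 24% lower. The arrays of the same 4 did not overlap, as for 19.1% of all probe sets in that direction. The median log2 difference was 0.47 over the 11 and 0.08 over all. With unscaled arrays 1 of the 4, Per1, kept its call, and the whole table then gave 1316 higher and 4259 lower in place of 3309 and 2893.

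Per1 had the largest difference of the members here, with 789.8 to 998.6 in QSC, against 335.7, 202.5, 165.3 and 412.1 in NMC, a log2 difference of 1.64 ± 0.26 (adjusted p 0.000135). It was 1.22 on the small-sample arrays and 1.95 on the two-cycle ones. Nr1d1 had 420.9 to 622.6 in QSC and 358.3, 125.0, 200.6 and 396.6 in NMC, a log2 difference of 0.88 ± 0.26 (adjusted p 0.0112). The lowest QSC array exceeded the highest NMC array by little, and the adjusted p was 0.116 and 0.0535 within the kits. Nr1d2 had 1235 to 1877 in QSC and 1046, 664.4, 503.4 and 1064 in NMC, also with a log2 difference of 0.88 (SE 0.23, adjusted p 0.00615), which was 0.34 on small-sample arrays (adjusted p 0.446) and 1.19 on two-cycle ones. Cry1 had 71.3 to 114.5 in QSC and 39.8, 61.0, 45.9 and 44.8 in NMC, a log2 difference of 0.73 ± 0.17 (adjusted p 0.00282, and 0.114 on small-sample arrays, of which 1 is NMC).

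The remaining members were not told apart in this comparison. The 95% interval of the log2 difference was -0.50 to 0.50 for Arntl, -0.78 to 0.37 for Cry2, -0.27 to 1.50 for Bhlhe40, -0.33 to 1.28 for Dbp 1438211_s_at, -0.64 to 0.82 for Dbp 1418174_at, -0.13 to 0.63 for Clock 1418659_at and -0.34 to 0.47 for Clock 1418660_at. The intervals of Bhlhe40 and Dbp 1438211_s_at allow a change of 2-fold or more. Cry2 had 134.5, 179.7, 91.6 and 178.2 in NMC, where the QSC arrays lay between 90.6 and 162.8. Clock in NMC had 193.9, 256.9, 225.5 and 227.5 at 1418659_at and 232.7, 274.6, 227.1 and 214.7 at 1418660_at, within the QSC range of either probe set. On two-cycle arrays the Bhlhe40 difference was 1.26 (adjusted p 0.0469), and on small-sample arrays -0.32. Without NMC replicate 4 the Dbp 1438211_s_at difference was 0.82 (adjusted p 0.0371). Satellite cell markers were higher in QSC for 8 of 8, and endothelial markers lower for 10 of 10 and fibroblast markers for 9 of 9. Immediate early genes were higher for 9 of 19 and lower for 1, with a summed signal of 65074 to 121162 in QSC and 43971 to 81199 in NMC. Their part in the 4 differences was not tested.

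Activated cells set against non-myogenic cells repeated many of the decreases, with the ASC arrays shared between both comparisons. Of the 11 member probe sets 8 were lower in ASC and 0 higher, for 6 of 9 genes (38.1% of all genes were lower), at 70% of all probe sets called, 35.9% lower and 34.1% higher. Per1, Cry2 and the dimmer Dbp probe set among them, and Cry1, which was not called, reached the filter signal only in QSC and NMC. These too could hardly be called higher in ASC. The arrays of the same 8 did not overlap, as for 29.5% of all in that direction. The median log2 difference was -1.69 over the 11 and -0.04 over all, whose calls were 4120 higher and 4330 lower, and 5848 and 2990 after median centring. Arntl had an adjusted p of 0.0613 on small-sample arrays alone. Median centring also called Clock 1418659_at higher in ASC (log2 0.54, adjusted p 0.0121). The log2 difference was -4.14 ± 0.41 for Bhlhe40, -2.50 ± 0.26 for Per1, -2.39 ± 0.37 and -1.91 ± 0.34 for the Dbp probe sets, -2.18 ± 0.27 for Cry2, -1.69 ± 0.26 for Nr1d1, -1.50 ± 0.23 for Arntl and -0.98 ± 0.19 for Clock 1418660_at (SE, adjusted p 7.77e-07 to 0.000362). Nr1d2 differed by -0.46 ± 0.23 (adjusted p 0.0952, and 0.0149 with a log2 difference of -0.64 without NMC replicate 3), Cry1 by -0.20 ± 0.17 (adjusted p 0.306) and Clock 1418659_at by 0.09 ± 0.18 (adjusted p 0.647).

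The order of the groups thus differed among the members. Per1 had ASC lowest, NMC between and QSC highest, and no neighbours overlapped. Nr1d1 followed the same order without overlap. For Nr1d2 QSC was highest, and ASC and NMC overlapped at 503.4 to 1064 in NMC and 532.9 to 667.8 in ASC. Cry1 also had QSC highest, with ASC and NMC overlapping. Bhlhe40, Dbp, Arntl and Cry2 had ASC lowest, with QSC and NMC overlapping, and Clock 1418659_at overlapped in all 3.

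The arrays of 1 group disagreed more on several clock genes than on most transcripts. The residual SD on the log2 scale was 0.70 for Bhlhe40, 0.63 and 0.57 for the Dbp probe sets, 0.43 for Cry2, and 0.41 for Per1 and Nr1d1, against a median of 0.26 over all tested probe sets, and 98.3%, 97.5%, 96.1%, 88.5%, 86.3% and 86.7% of tested probe sets had a smaller one. Cry1, at 0.22, and Clock, at 0.24 and 0.27, were near or under the median. For Dbp, Bhlhe40, Per1 and Nr1d1 the SD was largest among the NMC arrays, and for Cry2 it was 0.43 in ASC, 0.37 in QSC and 0.41 in NMC. Dbp had 805.8 and 1082 on NMC arrays 1 and 4, and 263.5 and 284.3 on NMC arrays 2 and 3. Bhlhe40 had 2099.6 and 2121 on NMC arrays 1 and 4, and 701.2 and 573.4 on the others. Per1, Nr1d1 and Nr1d2 were also higher on NMC arrays 1 and 4 than on arrays 2 and 3, by the values given above. Other members did not follow this split. Cry2 had 134.5 and 178.2 on NMC arrays 1 and 4, and 179.7 and 91.6 on arrays 2 and 3. Cry1 had 39.8 and 44.8 on NMC arrays 1 and 4, and 61.0 and 45.9 on arrays 2 and 3. The brighter Per2 probe set had 54.8 and 28.2 on NMC arrays 1 and 4, and 35.5 and 21.8 on arrays 2 and 3. Arntl had 328.2 and 324.5 on NMC arrays 1 and 4 and 396.0 and 397.2 on arrays 2 and 3. Array 1 was labelled with the small-sample kit and array 4 with the two-cycle kit. The summed signal of the 20 immediate early genes was 56901, 43971, 45909 and 81199 on NMC arrays 1 to 4. The part of kit, immediate early genes and clock phase in this spread was not tested.

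**Figure D3:**
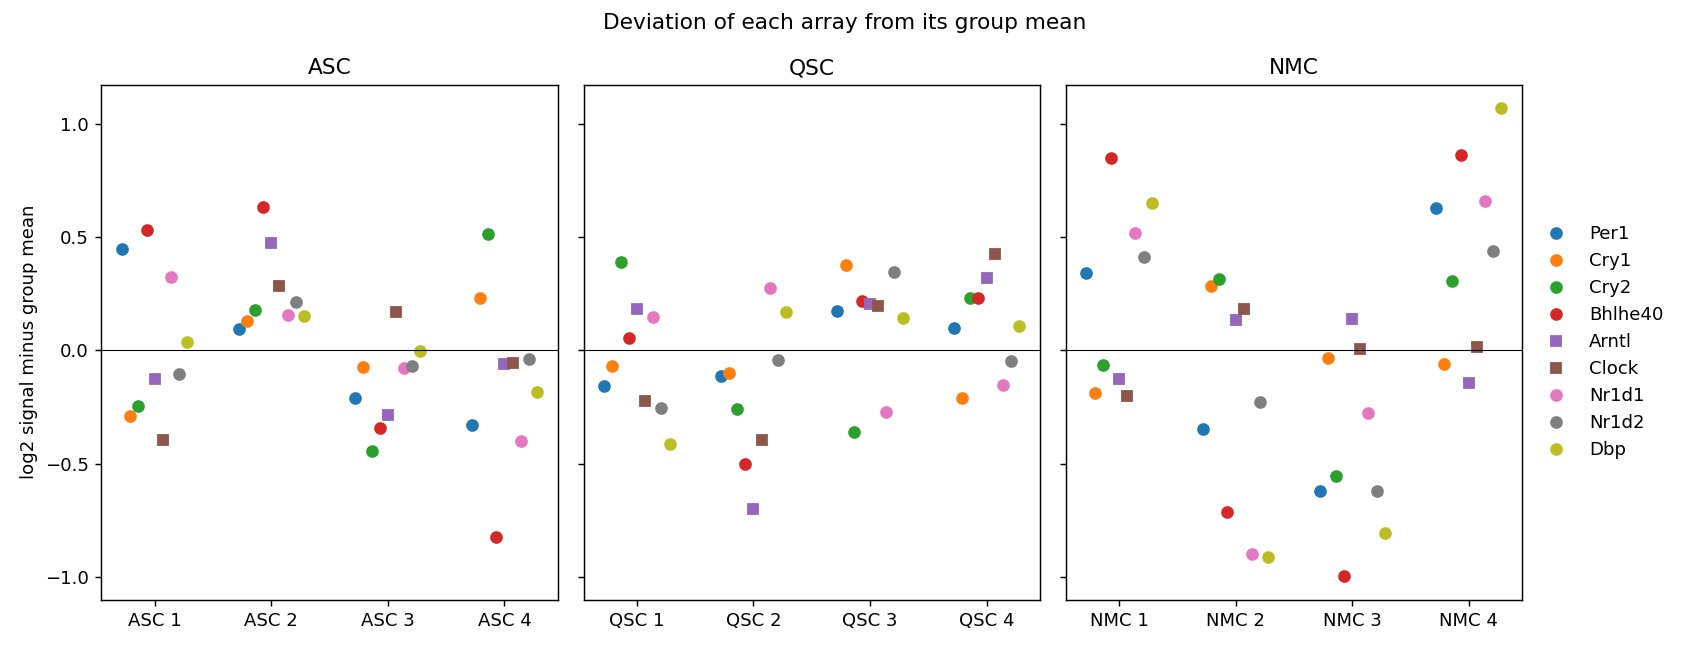
Log2 signal minus the mean of the group (vertical axis) on each of the 4 ASC, 4 QSC and 4 NMC arrays for the 9 tested clock genes at their brightest probe set, with squares for the activators Arntl and Clock and circles for the others. On NMC arrays 1 and 4 Bhlhe40, Dbp, Nr1d1, Nr1d2 and Per1 lie above 0 and on arrays 2 and 3 below it, while Arntl lies on the other side of 0 on each.

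Over the 12 arrays, after each group's mean was taken off, the deviations of Per1 correlated with those of Bhlhe40 at Pearson's r = 0.93, of Dbp at 0.85, of Nr1d2 at 0.79 and of Nr1d1 at 0.73, and those of Dbp with Nr1d1 at 0.81 and with Nr1d2 at 0.87. Per1 correlated with Cry2 at 0.11, with Clock at -0.13 and with Cry1 at -0.35. For Dbp the values were 0.06 with Cry2, -0.09 with Clock and -0.32 with Cry1, and for Nr1d1 with Cry1 -0.65. Arntl correlated with Clock at 0.66, with Cry1 at 0.33, with Cry2 at 0.31, with Bhlhe40 at 0.18, with Nr1d2 at -0.05, with Per1 at -0.06, with Dbp at -0.27 and with Nr1d1 at -0.34. Genes on 1 array share its RNA, its kit and its scaling, so these correlations describe the 12 arrays only. For Per1, Bhlhe40, Dbp, Nr1d1 and Nr1d2 the NMC arrays weigh most in them. The log2 SD of Dbp was 1.01 in NMC, 0.28 in QSC and 0.14 in ASC, and that of Per1 0.58, 0.16 and 0.35. Within QSC Per1 was higher and Nr1d1 lower on replicates 3 and 4 than on 1 and 2, while in ASC both fell from replicate 1 to 4. The kit was not taken off.

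The genes whose level over the 12 arrays was most like that of a member were sought among 7951 other genes. For Per1 they were Ccnl2, a cyclin linked to splicing, Egr2, an immediate early transcription factor, and Nfkbiz, an inducible regulator of NF-kappa-B (Pearson's r 0.99 each). For Nr1d1 they were the metallothionein gene Mt2, Ppp1r15a of the stress response and Tiparp (r 0.98, 0.98 and 0.98). For Dbp they were the immediate early gene Ier3, Cd83 and Pan2 (0.98, 0.97 and 0.97), and for Arntl Dcaf11, Lpin1, a phosphatidate phosphatase, and Trim44 (0.98, 0.98 and 0.97). The 12 points fall into the 3 groups, which these genes share.

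The other genes of the clock system were followed as 3 lists. Of all genes, 37.9% were lower and 31.6% higher in ASC against QSC. In QSC against NMC 26.3% were lower and 25.9% higher, and in ASC against NMC 38.1% and 33.8%. Of 13 further clock transcription factors and repressors 11 were on the array and 7 were tested, and 5 of the 7 were lower in ASC than in QSC and 0 higher. Rora, the receptor that activates Arntl, averaged 42.6 ± 26.2 in ASC, 870 ± 299 in QSC and 486 ± 82.4 in NMC (SD, n = 4 each), a log2 difference of -4.02 ± 0.21 for ASC against QSC. Nfil3, a repressor at the D-boxes that Dbp activates, averaged 70.5 ± 13.6, 815 ± 165 and 215 ± 88.6, with a log2 difference of -3.27 ± 0.25. Rora and Nr1d1, which act oppositely on Arntl, were thus both lower in ASC, as were Dbp and Nfil3. Hlf, a relative of Dbp, had a log2 difference of -1.90 ± 0.16 and Per3, the third period gene, one of -1.25 ± 0.24. Rora, Hlf and Per3 averaged 42.6, 18.3 and 22.9 in ASC, under the filter. They passed it through QSC and NMC, and could hardly be called higher in ASC against either group. Npas2, which can stand in for Clock, was under the filter, at 3.76 ± 2.06 in ASC, 67.1 ± 27.6 in QSC and 45.0 ± 14.3 in NMC. Bhlhe41, the paralogue of Bhlhe40, was under it too but brightest in ASC, at 44.2 ± 11.9, against 16.4 ± 6.17 in QSC and 16.6 ± 2.01 in NMC. For QSC against NMC, Nfil3 (log2 1.85 ± 0.25) and Rora (0.59 ± 0.21) were higher and Hlf (1.99-fold) and Timeless (-1.12 ± 0.24) lower, and for ASC against NMC 6 of 7 were lower and 0 higher, with log2 differences of -2.90 for Hlf, -3.43 for Rora, -1.42 for Nfil3 and -1.35 for Per3. For QSC against NMC the Rora call was lost in 12 of 28 alternatives, with 0.33 (adjusted p 0.228) without NMC replicate 1 and 0.22 unscaled, and Timeless stood at -0.32 (adjusted p 0.212) as the mean of its probe sets.

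Kinases, ubiquitin ligases and cofactors of clock proteins did not share one direction. Of 16 tested genes 5 were lower, 2 higher and 9 not called in ASC against QSC, with a median log2 difference of -0.19. Over all genes 37.9% were lower and 31.6% higher there, 26.3% and 25.9% in QSC against NMC, and 38.1% and 33.8% in ASC against NMC. Kat2b, an acetyltransferase that works with the Clock pair, had a log2 difference of -3.28 ± 0.15, and Csnk1d, a casein kinase that phosphorylates Per proteins, one of -1.14 ± 0.14. Sfpq, a splicing factor that joins the Per complex, had one of -2.36 ± 0.22 at the probe set used. Ddb1, an adaptor of a ubiquitin ligase, was higher by 1.18 ± 0.16 and Csnk2a1, a kinase subunit, by 0.85 ± 0.17, though as the mean of its probe sets Csnk2a1 stood at 0.22 (adjusted p 0.27). For QSC against NMC 7 were higher and 1, the ubiquitin ligase gene Btrc (-0.77 ± 0.18), lower, led by the deacetylase gene Sirt1 (1.19 ± 0.16), Sfpq (1.60 ± 0.22), Csnk1d (0.97 ± 0.14) and Nono (0.61 ± 0.14, and 0.21 with an adjusted p of 0.402 unscaled). The arrays of Nono overlapped, as did those of Sfpq, at 630.7 to 3081 in QSC and 156.0 to 856.0 in NMC. On small-sample arrays, of which 1 is NMC, Sfpq stood at 1.43 and Sirt1 at 0.87. For ASC against NMC 6 were higher, among them Csnk2a1 (1.27 ± 0.18), Ddb1 (1.01 ± 0.17) and Nono (0.89 ± 0.14), and 3 lower, Kat2b (-3.08), Btrc (-0.55) and Sfpq (-0.76). Btrc lost its call in 7 of 27 alternatives, with -0.10 (adjusted p 0.612) after median centring and an adjusted p of 0.051 with the replicate block. Sfpq stood at -0.31 (adjusted p 0.237) after median centring, and was higher in ASC as the mean of its probe sets (0.59, adjusted p 0.00554).

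Genes whose transcripts cycle in many tissues were as mixed, with 1 higher, 4 lower and 4 not called of 9 tested in ASC against QSC. In that comparison 37.9% of all genes were lower and 31.6% higher. The shares were 26.3% and 25.9% in QSC against NMC, and 38.1% and 33.8% in ASC against NMC. Klf9, a transcription factor induced by glucocorticoids, averaged 368 ± 161 in ASC, 8810 ± 2289 in QSC and 6594 ± 1620.2 in NMC (SD, n = 4 each), a log2 difference of -4.59 ± 0.31. Usp2, a deubiquitinase, had a log2 difference of -2.38 ± 0.15 and Tsc22d3, another glucocorticoid target, one of -1.83 ± 0.36 (-0.96 with an adjusted p of 0.116 on small-sample arrays). Nampt, the enzyme of the NAD salvage pathway, was higher by 1.01 ± 0.25, with 338.6 to 568.6 in ASC and 80.8 to 308.1 in QSC, but stood at 0.45 (adjusted p 0.0618) as the mean of its probe sets. For QSC against NMC 3 were higher, Pdk4, an inhibitor of pyruvate oxidation (2.71 ± 0.21), Usp2 (1.06 ± 0.15) and Wee1, a mitotic kinase inhibitor (0.70 ± 0.27), and Tsc22d3 was lower (-1.35 ± 0.36). The Wee1 call was lost in 18 of 28 alternatives, with an adjusted p of 0.104 with the replicate block and 0.44 (adjusted p 0.105) without NMC replicate 3, and Tsc22d3 stood at -0.41 (adjusted p 0.0673) as the mean of its probe sets. For ASC against NMC 2 were higher, Pdk4 (2.07 ± 0.21) and Wee1 (0.90 ± 0.27, and 0.26 with an adjusted p of 0.565 on small-sample arrays), and 3 lower, Klf9, Tsc22d3 and Usp2 (-4.16, -3.18 and -1.32).

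**Figure D4:**
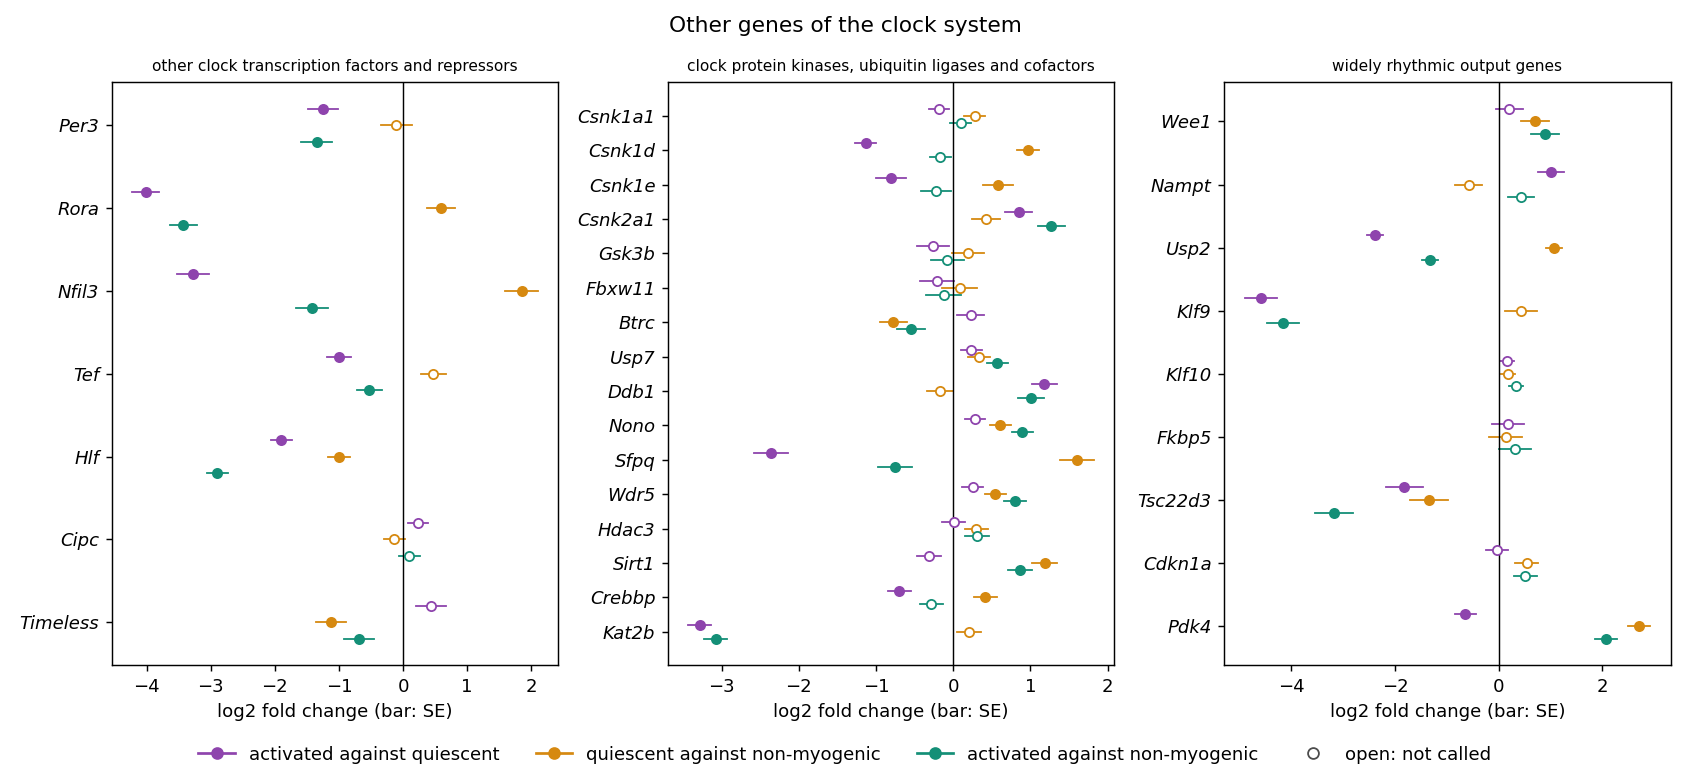
Log2 fold change (horizontal axis, bars for the SE) of the tested genes of 3 lists of the clock system in the 3 comparisons, filled where called and open where not. In activated against quiescent cells Rora, Nfil3, Kat2b, Klf9 and Usp2 lie furthest to the left and Ddb1 and Nampt furthest to the right.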

How the data were processed

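The deposited values are MAS5 intensity values per probe set on a linear scale, per the submitters' processing notes; no version is named there. RNA was isolated with a Qiagen RNeasy kit, and both labelling kits are per the labels' protocols. The deposited 2% trimmed means ran from 323 to 502 on the small-sample and 160 to 236 on the two-cycle arrays, so each array was scaled to 235.14. No detection calls were used, and precision is limited by the number of arrays. Values became log2(signal + 14.7), the pseudocount being 1/16 of the trimmed mean, so fold changes understate those of dim genes. Probe sets were named through the platform annotation, with 20351 of 20380 symbols checked by Entrez ID. Probe sets with several genes (691), none listed (1555) and controls (64) were left out.

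limma 3.58.1 in R 4.3.3 was fitted on all 12 arrays with group and kit (8 residual degrees of freedom) over 12072 probe sets, of which 7960 are the brightest of their gene. Genes of the lists were read at that probe set. Called means a Benjamini-Hochberg adjusted p under 0.05. In data simulated for activated against quiescent cells, with 200 of 12072 probe sets changed, 77% of 2-fold and 99% of 4-fold changes were called, with 12 unchanged ones. In the real data 68.3% of probe sets were called in that comparison. The adjustment is then looser, so the simulated shares do not describe that fit. Named are all members, the 4 called genes with the smallest adjusted p and any against the majority in each list and comparison, and the 3 genes most like Per1, Nr1d1, Dbp and Arntl. Npas2 and Bhlhe41 were named after their values were seen, as was the split of the non-myogenic arrays. Members, lists and alternatives were chosen with earlier results of these data known. Same-numbered ASC and QSC arrays deviated together (r 0.17 to 0.31), and ASC and QSC arrays of the same kit with other numbers did so as well (0.22 to 0.36). Same-numbered arrays of different kits did not, at -0.18 for ASC 2 with NMC 2 and -0.39 for QSC 2 with NMC 2. The numbers may thus carry the kit. Figures were drawn with Python 3.11.15 and matplotlib 3.10.9.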

Additional observations from a re-analysis of the deposited data

Results flagged for a closer look

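In 42 groups of 4 arrays (14 probe sets in 3 groups) the array farthest out was set against the rest, and 3 had a gap to the nearest other array above Dixon's 95% critical share of the group's range on the log2 scale, where chance gives about 1 in 20 groups. Arntl on QSC replicate 2, at 210.7, lay below the other QSC arrays with a gap of 0.866 of the range. Dbp 1438211_s_at on QSC replicate 1, at 550.1, lay below the others with a gap of 0.893. The dim Per2 probe set 1417603_at on NMC replicate 1, at 9.9, lay above the others with a gap of 0.884. Without QSC replicate 2 Arntl differed by 0.20 on the log2 scale between QSC and NMC.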

How the results depend on the processing

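The 10 member probe sets (8 genes) called lower in ASC against QSC were 10 (8) without any 1 array, and the replicate number as a block also gave 10 (8) and changed the call of no member. For QSC against NMC the 4 called probe sets and genes were 1 and 1 both on small-sample arrays alone and with unscaled arrays, and 4 to 5 without any 1 array. For ASC against NMC the 8 probe sets (6 genes) were 8 to 9 (6 to 7). Over all alternatives 858 member values kept direction and side of the threshold, 9 lost and 6 gained a call, and 33 changed sign, 1 of them with a call (Clock as the mean of its probe sets). For ASC against NMC the sign turned for Clock 1418659_at on two-cycle arrays (-1.73e-05), as the mean of probe sets (-0.45, adjusted p 0.0252) and among the fits without single arrays (-0.0463 to 0.195), for Cry1 after median centring (0.25) and quantile normalization (0.22), and for Sfpq as the mean of probe sets (0.59). For ASC against QSC it turned for Clock 1418659_at on small-sample arrays (0.0937), unscaled (0.14) and median centred (0.28). For QSC against NMC it turned for Arntl on two-cycle arrays (0.19), with a pseudocount of 1/4 of the trimmed mean (0.0068), quantile normalization (0.069), array weights (0.0753), the arrays of the 2 groups alone (0.0627), the replicate block (0.0526) and among the fits without single arrays (-0.12 to 0.198). It turned for Bhlhe40 on small-sample arrays (-0.32), for Clock 1418659_at unscaled (-0.13), and for Clock 1418660_at on small-sample arrays (-0.32), unscaled (-0.31) and without QSC replicate 3 (-0.11). It turned for Dbp 1418174_at on small-sample arrays (-0.38), unscaled (-0.27), with the replicate block (-0.19) and among the fits without single arrays (-0.152 to 0.374), and for Dbp 1438211_s_at on small-sample arrays (-0.25). The cause was not tested. Dbp 1438211_s_at had an adjusted p of 0.0371 for QSC against NMC without NMC replicate 4. Of the other genes named, 57 values lost a call and 0 gained one. Signals near the pseudocount, as for Per2, Cry1 and Cry2 in ASC, limit what a fold change can show.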
